A study of Mus musculus with 24 samples.

Results

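Chemokine receptors steer the movement of monocytes and macrophages, and 6 of them were followed here across sorted lung macrophages of mice with bleomycin injury. The members are Ccr1, Ccr2, Ccr7, Ccrl2, Cx3cr1 and Cxcr4, taken by gene symbol from both deposited count tables and joined by gene identifier, and they are 6 of the 49022 genes that the tables share. The study sequenced polyA RNA of sorted lung macrophages in 24 libraries, with 3 in each of 8 groups. Bleomycin, a drug that injures the lung epithelium and is followed by fibrosis, was given into the trachea at 3 µg/g of body weight, with PBS as the control.

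Interstitial macrophages were sorted as CD11b+ SiglecF-, and alveolar macrophages as CD11b- SiglecF+. Wild-type C57BL/6J mice gave interstitial macrophages 7 days after PBS and 7 days after bleomycin, with no reporter sort. Spp1-EGFP KI reporter mice, whose EGFP is knocked in at Spp1, the gene of osteopontin, gave the other 6 groups. These were EGFP- and EGFP+ interstitial macrophages at day 7 of bleomycin, EGFP+ interstitial macrophages at day 14, EGFP+ alveolar macrophages at days 14 and 30, and EGFP+ alveolar macrophages at day 7 after PBS. All reporter cells except the EGFP- group thus share the EGFP+ sort, the PBS alveolar cells included. The labels give no age, no zygosity of the knock-in allele, and no statement that replicates came from separate animals or that animals were pooled, so p-values measure only the spread between these libraries, which may be technical.

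As background, a chemokine receptor is a G protein-coupled receptor that makes a cell crawl towards the source of its ligand. Ccr2 answers to Ccl2 and its relatives and lets classical monocytes leave the marrow for inflamed tissue, while Cx3cr1 binds the membrane-tethered Cx3cl1 (fractalkine) and is high on nonclassical monocytes and many tissue macrophages. Ccr1 binds Ccl3, Ccl5, Ccl6 and Ccl9, Cxcr4 binds Cxcl12 and holds leukocytes in marrow and tissue, and Ccr7 follows Ccl19 and Ccl21 and brings dendritic cells and naive T cells into lymph nodes. Ccrl2 is an atypical receptor: it binds chemerin, the product of Rarres2, and presents it to the chemerin receptor Cmklr1 without a known signal of its own.

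Library totals ran from 13450053 to 24580620 counts, and the counts of the members ran from 91 for Cx3cr1 in a PBS alveolar library to 18103 for Ccrl2 in an EGFP- library. Levels are given as CPM, counts scaled to a common library total, and differences as fitted log2 fold changes with their standard errors from edgeR's quasi-likelihood test, where a gene counts as called if its p, adjusted by the Benjamini-Hochberg method across every tested gene, is under 0.05. The fits rescale libraries to one another, so a fitted fold can differ from the ratio of mean CPM. The 15 day 7 libraries are in one deposited table and the 9 of days 14 and 30 in another, so table and group cannot be told apart where day 7 is set against a later day. Spp1 averaged 518 ± 59.5 CPM (SD, n = 3) in EGFP- and 4103 ± 597 in EGFP+ interstitial cells of day 7, and 202 ± 9.47 in the PBS alveolar cells sorted as EGFP+. Itgam, which encodes CD11b, stood between 7.32 and 26.1 CPM in the means of the alveolar groups and between 218 and 379 in those of the interstitial groups, and Siglecf between 122 and 415 against 7.42 to 25.1. The summed level of 10 neutrophil markers was 6564 to 7889 CPM in wild-type PBS libraries, 1453 to 1487 after bleomycin, 3782 to 5176 in EGFP-, 1706 to 2339 in EGFP+ day 7 libraries, and at most 519 in any other library, with Ly6g and Camp at 0 in the alveolar libraries of day 14. In 1 library, replicate 1 of the EGFP+ interstitial macrophages of day 14, the macrophage marker Lyz2 was at 12020 CPM against 33290 and 46280 in replicates 2 and 3, while the other 5 macrophage markers summed to 3051 against 3245 and 3236. There, 7 classical monocyte markers summed to 1071 CPM against 523 and 357, most of it F13a1 at 774 against 295 and 120. Fitted differences of the named genes and counts of members and list genes called that rest on this library are given with and without it. In bulk libraries of this kind, fewer cells of a type and less RNA per cell cannot be told apart.

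In GRCm38 coordinates of the deposited tables, 4 of the members lie on chromosome 9: Ccr1 (ENSMUSG00000025804, chr9:123962124-123968692, minus strand), Ccr2 (ENSMUSG00000049103, chr9:124101950-124113557, plus strand), Ccrl2 (ENSMUSG00000043953, chr9:111054486-111057519, minus strand) and Cx3cr1 (ENSMUSG00000052336, chr9:119901616-120069879, minus strand). Ccr1 and Ccr2 are 133257 bases apart. Ccr7 (ENSMUSG00000037944) is at chr11:99144196-99155077 and Cxcr4 (ENSMUSG00000045382) at chr1:128588199-128592293, both on the minus strand. Of the 50-base windows of its longest transcript, 2.27% of those of Ccr2 occur also in another gene, and 1.06% of those of Cx3cr1 in the antisense gene model Gm33858, whose exons overlap 78 exon bases of Cx3cr1. The strand setting of the counting is not given in the sources used here, so reads of these 78 bases could belong to either gene. No such window of Ccr1, Ccr7, Ccrl2 or Cxcr4 was shared.

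RefSeq promoter windows (GRCm38.p6) were matched for 5 members, all but Ccr7. The 250 bases before the start site are shown for the 3 members that were higher in alveolar macrophages at day 14 of bleomycin than after PBS and lower again at day 30 than at day 14, and whose window does not lie in exons of the gene models apart from 1 base for Ccrl2. They read 5′ to 3′ on the strand of the gene, with motif matches in capitals.
Ccr1, chr9:123968693-123968942, minus strand: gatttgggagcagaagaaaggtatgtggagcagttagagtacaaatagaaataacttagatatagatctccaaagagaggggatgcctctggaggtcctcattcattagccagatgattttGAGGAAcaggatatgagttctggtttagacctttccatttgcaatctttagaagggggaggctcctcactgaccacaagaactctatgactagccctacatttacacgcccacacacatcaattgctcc
Ccrl2, chr9:111057519-111057768, minus strand: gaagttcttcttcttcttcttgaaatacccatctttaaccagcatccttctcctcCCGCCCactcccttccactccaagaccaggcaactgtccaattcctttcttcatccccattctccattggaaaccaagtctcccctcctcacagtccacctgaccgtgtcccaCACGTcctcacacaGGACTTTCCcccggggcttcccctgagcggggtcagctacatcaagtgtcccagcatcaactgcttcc
Cxcr4, chr1:128592300-128592549, minus strand: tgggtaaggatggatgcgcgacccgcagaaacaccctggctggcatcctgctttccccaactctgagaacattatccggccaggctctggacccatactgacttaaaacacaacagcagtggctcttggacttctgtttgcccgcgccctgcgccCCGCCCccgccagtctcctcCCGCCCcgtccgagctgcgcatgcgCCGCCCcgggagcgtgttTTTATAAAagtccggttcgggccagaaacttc
The motifs were searched on both strands. The capitals in the Ccr1 window are GAGGAA, a core bound by ETS factors, which 23.3% of the 32817 RefSeq windows of this length hold. The Ccrl2 window holds the GC box GGGCGG on the other strand (32.7% of windows), the HIF core ACGTG on the other strand (16.6%) and the kB site GGACTTTCC (0.3%) at positions -68 to -60 from the start site. The letters of the kB site were chosen after this sequence had been seen. The Cxcr4 window holds 3 GC boxes on the other strand and the TATA box TATAAA (12.4% of windows), which matches on both strands with overlap and ends at -25 on the strand of the gene. C/EBP (TTGCNNAA, 9.6%), AP-1 (TGANTCA, 6.8%) letters and the ISRE core motif (3.0%) were also searched and are not in these windows. The Cxcr4 window is the richest in G and C, at 61.2% with 19 CpG sites, against 54.0% and 5 for Ccrl2, 43.6% and 1 for Ccr1, and medians of 52.4% and 6 over all windows. A match describes the letters and not a bound site.

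**Figure D1:**
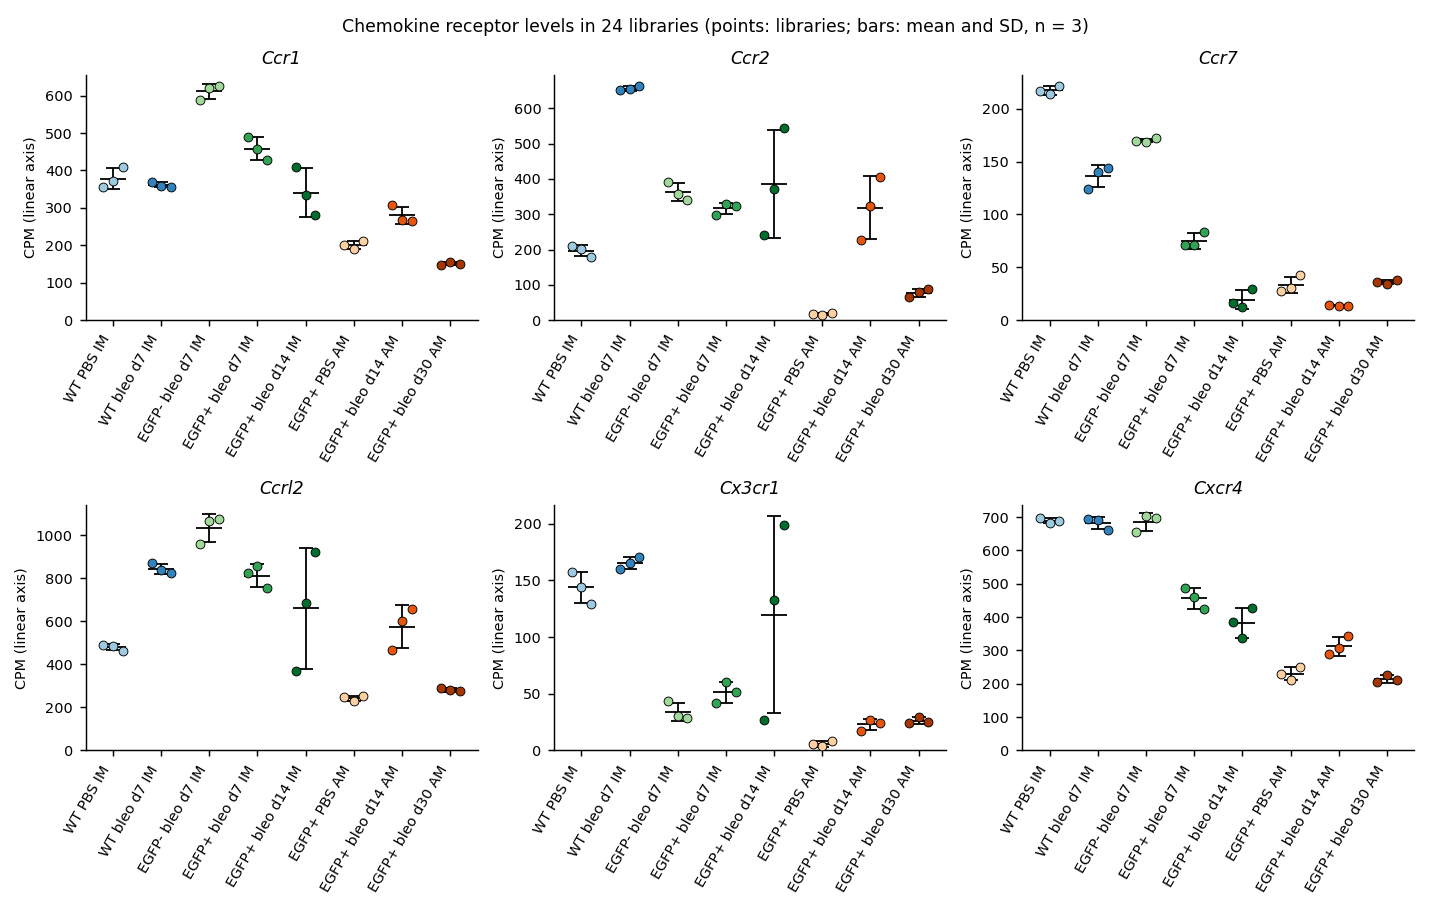
CPM of each receptor (linear y axes from 0) in the 3 libraries of each of 8 groups (x axis; IM interstitial, AM alveolar macrophages), with points as libraries and bars as mean and SD. Ccr2 is near the bottom of its axis in the PBS alveolar libraries (14.1 to 21.5 CPM) and highest in wild-type bleomycin libraries (651 to 663 CPM), and the 3 day 14 interstitial libraries spread widely for Ccr2, Ccrl2 and Cx3cr1.

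Across the 8 groups, Ccr2 had the widest span of group means, 37.1-fold from the lowest (PBS alveolar) to the highest (wild-type bleomycin interstitial). Cx3cr1 spanned 28.1-fold between the same groups, and Ccr7 15.8-fold from day 14 alveolar to wild-type PBS interstitial macrophages. The other members moved less: Ccrl2 spanned 4.26-fold, Ccr1 4.05-fold and Cxcr4 3.21-fold. Divided by exon length, which allows genes to be set side by side, Ccrl2 and Cxcr4 took the first and second place in every group and Ccr1 the third. In PBS alveolar macrophages Cxcr4 stood at 127 CPM per kb and Ccr2 at 2.62, whereas in wild-type bleomycin interstitial macrophages Cxcr4 stood at 377 and Ccr2 at 97.1. The sum of the 6 per-length levels was 312 ± 22.5 CPM per kb in PBS alveolar, 552 ± 59.1 in day 14 alveolar and 316 ± 7.45 in day 30 alveolar macrophages, and 1140 ± 41.2 in EGFP- interstitial macrophages (SD, n = 3 each).

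**Figure D2:**
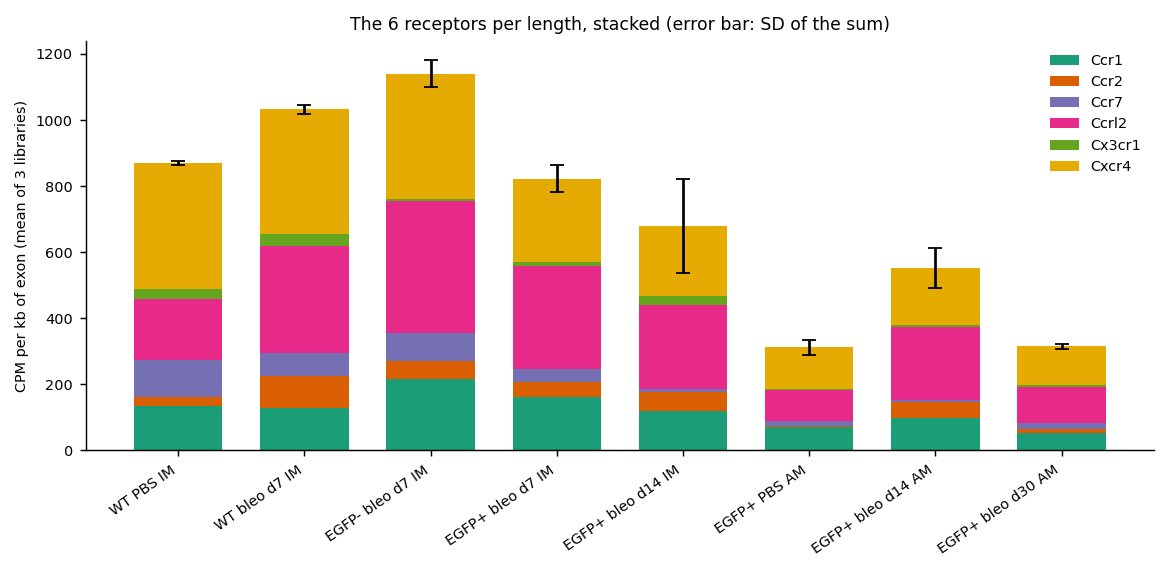
Mean CPM per kb of exon of the 6 receptors, stacked (y axis, linear from 0), in the 8 groups (x axis), with the SD of the sum over 3 libraries as the error bar. Ccrl2 and Cxcr4 fill most of every bar, and the bars of PBS and day 30 alveolar macrophages (312 and 316 CPM per kb) are the lowest.

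The comparisons differed in how many receptors moved. In wild-type interstitial macrophages 4 of 6 members passed the test after bleomycin, 3 higher and 1 lower, where 70.2% of all 15496 genes tested were called (35.6% higher and 34.5% lower), and the median log2 fold change of the members was 0.05 against 0.0 over all genes. Between EGFP+ and EGFP- interstitial macrophages at day 7, 3 of 6 were called, all lower in EGFP+, where 34.8% of genes were called (17.2% higher and 17.6% lower), and the medians were -0.44 and -0.02. With only these groups in the fit, Ccr1, Ccr7 and Cxcr4 stayed called. Ccr2 and Ccrl2 were then also called lower and Cx3cr1 higher (edgeR adjusted p = 0.0153, 0.00067 and 0.0381). In that fit 4064 of 14593 genes were called higher and 3623 lower. Between days 14 and 7 in EGFP+ interstitial macrophages 1 of 6 was called, lower at day 14, where 52.2% of genes were (25.3% higher and 26.9% lower), and the medians were -0.04 and 0.0. Without replicate 1 of day 14, 4 of 6 were called. In EGFP+ alveolar macrophages all 6 members were called between day 14 of bleomycin and PBS, 5 higher and 1 lower, against 54.9% of genes called (27.3% higher and 27.6% lower), with medians of 1.04 and -0.01. At day 30 against PBS 4 of 6 were called, 3 higher and 1 lower, against 47.9% of genes (24.8% higher and 23.1% lower), with medians of 0.28 and 0.02. From day 14 to day 30, 5 of 6 were called, 1 higher and 4 lower, against 38.4% of genes (19.6% higher and 18.7% lower), with medians of -0.79 and 0.01. Between EGFP+ interstitial and alveolar macrophages of day 14 no member was called by edgeR, where 21.0% of genes were (10.8% higher and 10.2% lower), and the medians were 0.42 and 0.01. In that comparison 3 members had an unadjusted p under 0.05, DESeq2 called 2, edgeR with the replicate number as a block called 2 (Ccr1 and Cxcr4, where 3648 genes were called in place of 2832), and edgeR called 3 without interstitial replicate 1. The 3 alveolar comparisons share libraries with each other, as do both interstitial reporter comparisons.

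**Figure D3:**
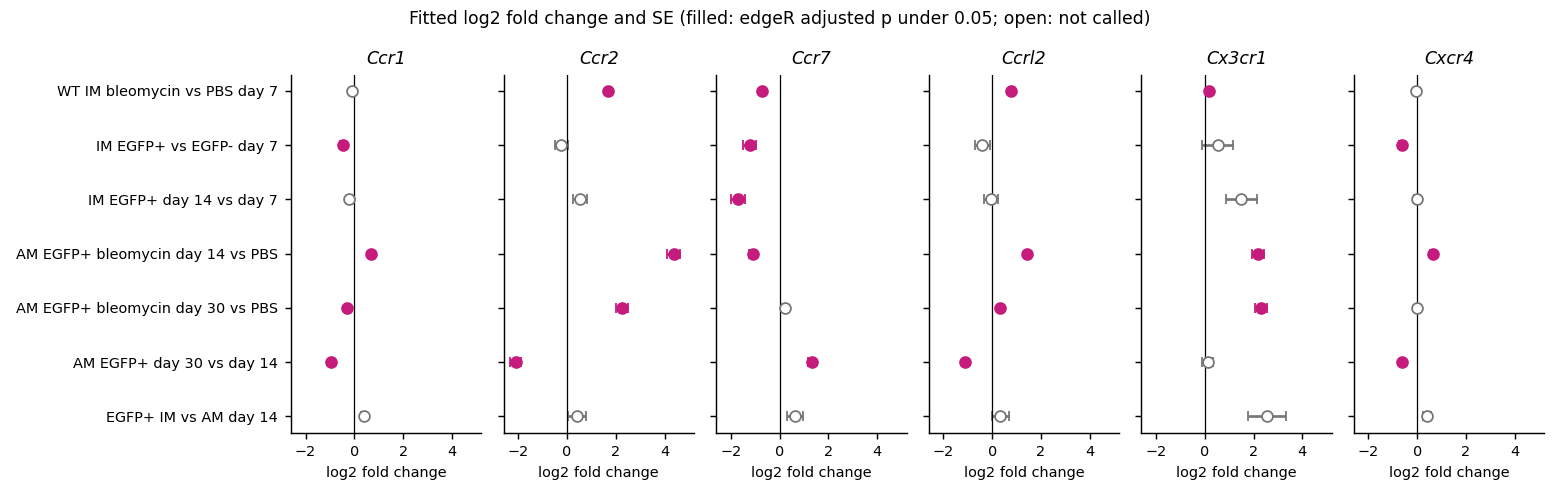
Fitted log2 fold change with its SE (x axis) of each receptor in the 7 comparisons (rows), filled where edgeR's adjusted p was under 0.05 and open where it was not. All 6 receptors are filled for alveolar macrophages at day 14 against PBS, where Ccr2 lies farthest to the right at 4.37, and all 6 are open for interstitial against alveolar macrophages at day 14.

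Ccr2, the receptor of recruited classical monocytes, rose after bleomycin in both gates. Wild-type interstitial libraries stood at 210, 202 and 179 CPM after PBS and at 651, 654 and 663 CPM after bleomycin. Every bleomycin library was above every PBS library, and the fitted difference was 1.69 ± 0.06 on the log2 scale (3.23-fold, edgeR adjusted p = 1.7e-17). In the same libraries the summed classical monocyte markers were 1765 to 1926 CPM after PBS and 1130 to 1144 CPM after bleomycin. In EGFP+ alveolar macrophages Ccr2 was at 17.5, 14.1 and 21.5 CPM after PBS, at 226, 323 and 407 CPM at day 14 and at 65.3, 80.1 and 87.4 CPM at day 30. The 3 sets of libraries did not overlap, with PBS lowest and day 14 highest. Against PBS, Ccr2 rose 20.6-fold at day 14 (log2 4.37 ± 0.27, edgeR adjusted p = 2.9e-06) and 4.77-fold at day 30 (log2 2.25 ± 0.26, edgeR adjusted p = 0.000155), and it fell by 2.11 ± 0.24 on the log2 scale between these days (4.33-fold, edgeR adjusted p = 0.000269). Summed classical monocyte markers in the alveolar libraries were 79.2 to 145 CPM after PBS, 113 to 189 at day 14 and 228 to 273 at day 30. Other markers moved in the alveolar gate too. Of 7 interstitial macrophage markers, Cx3cr1 among them, 3 were higher and 0 lower at day 14 against PBS (27.3% and 27.6% of all genes). From day 14 to day 30, 1 was higher and 3 were lower (19.6% and 18.7% of all genes). The complement genes C1qa and C1qb rose 28.1-fold and 49.3-fold at day 14 against PBS (edgeR adjusted p = 4.0e-07 and 4.4e-06). They fell 1.86-fold and 2.01-fold from day 14 to day 30 (edgeR adjusted p = 0.00901 and 0.0209). Folr2 was not called at day 14 against PBS (log2 -0.66, edgeR adjusted p = 0.366). It rose 5.12-fold from day 14 to day 30 (edgeR adjusted p = 0.00285), at alveolar group means of at most 1.75 CPM. The 6 markers without Cx3cr1 summed to 1800 to 1837, 1992 to 3531 and 1564 to 1631 CPM after PBS and at days 14 and 30, most of it Mrc1. Of 8 alveolar macrophage markers 1 was higher and 3 were lower at day 14 against PBS (27.3% and 27.6% of all genes), with Krt79 26-fold and Siglecf 2.98-fold lower. The sums of the 8 were 15780 to 17320, 14150 to 24660 and 15020 to 16720 CPM after PBS and at days 14 and 30. The part of these markers in the alveolar results of Ccr2 and the other members was not tested.

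Within injured interstitial macrophages, Ccr2 did not pass the test by reporter status. It was at 391, 357 and 342 CPM in EGFP- and 299, 329 and 324 CPM in EGFP+ libraries of day 7, which do not overlap (log2 -0.24 ± 0.27, edgeR adjusted p = 0.513). The shared spread of that fit takes in the uneven day 14 libraries, and with only the day 7 reporter groups in the fit the adjusted p was 0.0153 at a log2 fold change of -0.2. At day 14 the EGFP+ interstitial libraries stood at 240, 372 and 546 CPM, which span the day 7 range (log2 0.53 ± 0.27, edgeR adjusted p = 0.126). Without replicate 1 of day 14, Ccr2 was called higher at day 14 (log2 0.8, edgeR adjusted p = 0.000308). The unsorted wild-type bleomycin libraries (651 to 663 CPM) were above every library of the EGFP- and EGFP+ gates at day 7, groups that differ in genotype and sort, and this difference was not tested.

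Cx3cr1, the fractalkine receptor, was low in alveolar macrophages after PBS and higher at both later days of injury. Its PBS libraries were at 5.41, 3.70 and 8.56 CPM, those of day 14 at 17.3, 26.9 and 24.5 CPM, and those of day 30 at 23.8, 29.5 and 25.5 CPM. Both injured groups lay wholly above PBS and overlapped each other. The rise was 4.49-fold at day 14 (log2 2.17 ± 0.25, edgeR adjusted p = 2.0e-05) and 4.91-fold at day 30 (log2 2.3 ± 0.25, edgeR adjusted p = 1.4e-05), and the difference between these days was 0.13 ± 0.23 on the log2 scale (edgeR adjusted p = 0.7). Summed nonclassical monocyte markers were 1685 to 1721, 1022 to 1435 and 1301 to 1338 CPM in these groups, and their part was not tested.

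In interstitial macrophages Cx3cr1 separated the wild-type from the reporter libraries of day 7. Wild-type libraries were at 157, 144 and 129 CPM after PBS and 160, 166 and 171 CPM after bleomycin. The rise was 1.12-fold (log2 0.16 ± 0.06, edgeR adjusted p = 0.0236) and was not called with DESeq2 (adjusted p = 0.0818), with RLE size factors in edgeR (adjusted p = 0.0508), in one fit of all 24 libraries (adjusted p = 0.819) or without PBS replicate 3 (adjusted p = 0.117). In the wild-type libraries 8 nonclassical monocyte markers summed to 4862 to 5377 CPM after PBS and 1793 to 1947 CPM after bleomycin. All 8 were called lower after bleomycin, and their part in the Cx3cr1 result was not tested. The EGFP- libraries were at 43.2, 30.5 and 28.3 CPM and the EGFP+ libraries at 41.7, 60.3 and 51.6 CPM, both below every wild-type library. They overlapped (log2 0.54 ± 0.63, edgeR adjusted p = 0.541), and with only these groups in the fit the adjusted p was 0.0381. At day 14 the EGFP+ interstitial libraries were at 27.2, 133 and 199 CPM, of which replicate 1 is below and the others above the day 7 range. Against day 7 the log2 difference was 1.5 ± 0.63 (edgeR adjusted p = 0.0798), and without replicate 1 it was 1.97 (edgeR adjusted p = 0.000529). It was also called in one fit of all 24 libraries (adjusted p = 0.0107) and with DESeq2 (adjusted p = 0.0499). The 6 interstitial macrophage markers other than Cx3cr1 summed to 7543, 6518 and 6876 CPM in these 3 libraries, and 8 nonclassical monocyte markers to 509, 826 and 796 CPM. The markers in the first sum moved in opposite ways. Mrc1 was at 2852, 1461 and 757 CPM and Cd163 at 55.1, 21.4 and 2.46, and Folr2 and Lyve1 were also highest in replicate 1. C1qa was at 2073, 2483 and 2916 CPM, and C1qb was also lowest in replicate 1. Their part in the Cx3cr1 values was not tested.

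Ccr1, the receptor of Ccl6 and Ccl9, was highest in EGFP- interstitial macrophages. It was at 588, 620 and 627 CPM in EGFP- and 489, 456 and 428 CPM in EGFP+ libraries of day 7, without overlap. It was 1.38-fold lower in EGFP+ cells (log2 -0.47 ± 0.11, edgeR adjusted p = 0.00802). The 10 neutrophil markers, one of them the receptor Cxcr2, were all called lower in EGFP+ cells too, and their part in the differences of Ccr1 and Cxcr4 between these groups was not tested. In wild-type interstitial macrophages Ccr1 was at 355, 371 and 410 CPM after PBS and 369, 359 and 356 CPM after bleomycin, below both reporter gates of day 7, and the difference by treatment was -0.11 ± 0.05 (edgeR adjusted p = 0.0709). It was called with DESeq2 (adjusted p = 0.043), with RLE size factors in edgeR (adjusted p = 0.0317) and without PBS replicate 1 (edgeR adjusted p = 0.0204), with log2 values of -0.13 to -0.15. The day 14 interstitial libraries were at 409, 335 and 280 CPM, each below the day 7 EGFP+ libraries, at a fitted log2 difference of -0.21 ± 0.11 (edgeR adjusted p = 0.134). That difference was called without replicate 1 of day 14 (-0.32, edgeR adjusted p = 0.0114), with scaling by library totals alone (-0.42, edgeR adjusted p = 0.0146) and in one fit of all 24 libraries (adjusted p = 0.0489).

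In alveolar macrophages Ccr1 rose and then fell below its PBS level. Its libraries were at 200, 191 and 212 CPM after PBS, 307, 268 and 264 CPM at day 14, and 148, 156 and 149 CPM at day 30. The 3 groups did not overlap. Ccr1 was 1.58-fold higher than PBS at day 14 (log2 0.66 ± 0.08, edgeR adjusted p = 2.2e-06) and 1.23-fold lower at day 30 (log2 -0.30 ± 0.08, edgeR adjusted p = 0.00503), and between the days it fell by 0.96 ± 0.08 (edgeR adjusted p = 1.0e-07).

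Cxcr4, the Cxcl12 receptor, had the narrowest span of the members. Wild-type interstitial libraries were at 696, 682 and 688 CPM after PBS and 695, 692 and 661 CPM after bleomycin, overlapping ranges (log2 -0.06 ± 0.05, edgeR adjusted p = 0.269). EGFP- libraries were at 655, 703 and 697 CPM and EGFP+ libraries at 486, 461 and 424 CPM at day 7. The EGFP+ libraries were all lower (log2 -0.63 ± 0.12, 1.55-fold, edgeR adjusted p = 0.00196). At day 14 the EGFP+ interstitial libraries were at 387, 337 and 426 CPM, and the fitted difference from day 7 was -0.03 ± 0.12 (edgeR adjusted p = 0.853) and without day 14 replicate 1 it was 0.0017. In alveolar macrophages Cxcr4 was at 230, 211 and 249 CPM after PBS, 288, 306 and 344 CPM at day 14 and 204, 227 and 212 CPM at day 30. Day 14 stood above both other groups, which overlapped. It rose 1.55-fold by day 14 (log2 0.63 ± 0.09, edgeR adjusted p = 1.5e-05), fell by 0.62 ± 0.09 from day 14 to day 30 (edgeR adjusted p = 4.6e-05), and differed by 0.01 ± 0.09 between day 30 and PBS (edgeR adjusted p = 0.917). That last value changed sign with library totals alone, at -0.1.

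Ccrl2, the chemerin-presenting receptor, rose after bleomycin in both gates. Wild-type interstitial libraries were at 491, 484 and 464 CPM after PBS and 869, 838 and 825 CPM after bleomycin, a rise in every library (log2 0.77 ± 0.05, 1.7-fold, edgeR adjusted p = 2.1e-12). EGFP- libraries were at 961, 1065 and 1076 CPM and EGFP+ libraries at 824, 857 and 753 CPM at day 7, without overlap, at a log2 difference of -0.40 ± 0.3 (edgeR adjusted p = 0.336). With only these groups in the fit the adjusted p was 0.00067. The day 14 interstitial libraries were at 367, 687 and 924 CPM, which reach from below to above day 7, and the difference was -0.05 ± 0.3 (edgeR adjusted p = 0.903) and without day 14 replicate 1 it was 0.25 (edgeR adjusted p = 0.107).

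In alveolar macrophages Ccrl2 was at 248, 229 and 251 CPM after PBS, 465, 601 and 658 CPM at day 14 and 290, 280 and 274 CPM at day 30. The groups did not overlap, with day 14 highest. It rose 2.69-fold by day 14 (log2 1.43 ± 0.1, edgeR adjusted p = 6.5e-09) and fell by 1.1 ± 0.1 from day 14 to day 30 (2.15-fold, edgeR adjusted p = 5.0e-07). The remaining difference from PBS at day 30 was 0.33 ± 0.1 (edgeR adjusted p = 0.0147). That call was lost with library totals alone (adjusted p = 0.0908), in one fit of all 24 libraries (adjusted p = 0.258), without day 30 replicate 1 (adjusted p = 0.0523) and without PBS replicate 2 (adjusted p = 0.0706).

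Ccr7, the lymph node homing receptor, fell after bleomycin in wild-type interstitial macrophages, and among reporter cells it was lower in EGFP+ than in EGFP- cells and lower at day 14 than at day 7. Wild-type libraries were at 217, 214 and 222 CPM after PBS and 124, 141 and 144 CPM after bleomycin, and every bleomycin library was lower (log2 -0.72 ± 0.06, 1.65-fold, edgeR adjusted p = 6.6e-11). EGFP- libraries were at 169, 169 and 172 CPM, EGFP+ libraries of day 7 at 70.7, 71.0 and 83.7 CPM and those of day 14 at 16.4, 12.1 and 29.6 CPM. The 3 reporter groups did not overlap. Ccr7 was 2.34-fold lower in EGFP+ than EGFP- cells (log2 -1.23 ± 0.27, edgeR adjusted p = 0.00854), which was not called without the filter on low counts (adjusted p = 0.0515). It was 3.29-fold lower at day 14 than at day 7 (log2 -1.72 ± 0.29, edgeR adjusted p = 0.00114), and without day 14 replicate 1 the value was -1.58 (edgeR adjusted p = 0.0106). Summed markers of 9 dendritic cell genes were 233 to 264 CPM in wild-type PBS libraries, 182 to 207 after bleomycin, 233 to 253 in EGFP-, 113 to 145 in EGFP+ day 7 and 17.7 to 19.3 in EGFP+ day 14 libraries, and none of the 9 was at 0 in any of these groups. T cell markers summed to 137 to 147, 148.8 to 149.5, 93.0 to 97.8, 63.9 to 90.3 and 34.6 to 79.4 CPM in the same groups, and 5 B cell markers to 638 to 743, 144 to 178, 48.3 to 64.1, 28.6 to 86.9 and 10.4 to 24.8 CPM. Their part in the Ccr7 result was not tested.

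In alveolar macrophages Ccr7 was at 27.9, 30.6 and 42.4 CPM after PBS, 14.6, 13.6 and 13.1 CPM at day 14 and 36.0, 34.1 and 38.3 CPM at day 30. The day 14 libraries were lower than all others, while PBS and day 30 overlapped. Ccr7 fell 2.14-fold by day 14 (log2 -1.1 ± 0.14, edgeR adjusted p = 4.1e-06) and rose 2.5-fold from day 14 to day 30 (log2 1.32 ± 0.14, edgeR adjusted p = 1.5e-06), the one member that rose between these days. At day 30 it differed from PBS by 0.22 ± 0.13 (edgeR adjusted p = 0.16), and without PBS replicate 3 by 0.42 (edgeR adjusted p = 0.00741). Dendritic cell markers summed to 41.8 to 53.4, 10.5 to 36.9 and 37.8 to 39.9 CPM in these groups, and T cell markers to 31.9 to 43.9, 17.6 to 37.6 and 84.1 to 100.2 CPM. The 5 B cell markers summed to 103 to 135, 4.72 to 6.48 and 54.5 to 74.8 CPM, and all 5 fell by day 14 and rose from day 14 to day 30, Pax5 by 22.2-fold and 10.4-fold and Cd79b by 18.4-fold and 15.4-fold. Neutrophil markers summed to 93.2 to 158, 78.4 to 102 and 437 to 519 CPM. Their part was not tested.

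Between the EGFP+ cells of both gates at day 14, Cx3cr1 had the widest gap, at 27.2, 133 and 199 CPM in interstitial and 17.3, 26.9 and 24.5 CPM in alveolar libraries. The lowest interstitial library, replicate 1 at 27.16 CPM, was barely above the highest alveolar library, replicate 2 at 26.91 CPM. The log2 difference was 2.55 ± 0.77 (5.86-fold, edgeR adjusted p = 0.0755). It was called without interstitial replicate 1 (3.03, edgeR adjusted p = 4.9e-06), with DESeq2 (adjusted p = 0.00886) and in one fit of all 24 libraries (edgeR adjusted p = 0.000518). Same-numbered libraries of the gates deviated together over all genes, and with the replicate number as a block Ccr1 (log2 0.39, adjusted p = 0.0310) and Cxcr4 (log2 0.41, adjusted p = 0.0246) were called higher in interstitial cells, against 0.0818 and 0.0906 in edgeR without the block. Ccr1 was higher in the interstitial library of each number, at 409 against 307, 335 against 268 and 280 against 264 CPM. Cxcr4 was likewise higher in each pair, at 387 against 288, 337 against 306 and 426 against 344 CPM. Ccr2 had its lowest value in the libraries numbered 1 and its highest in those numbered 3 in both gates, as had Ccrl2. The differences between gates were 0.42 ± 0.36 for Ccr2, 0.34 ± 0.35 for Ccrl2 and 0.63 ± 0.32 for Ccr7 (edgeR adjusted p = 0.483, 0.553 and 0.214), and Ccr7 was called without the filter on low counts (0.61, edgeR adjusted p = 0.00959). Without interstitial replicate 1, Ccrl2 (0.66, edgeR adjusted p = 0.0145) and Cxcr4 (0.46, edgeR adjusted p = 0.0407) were called, while Ccr1 was at 0.3, Ccr2 at 0.7 and Ccr7 at 0.78 (edgeR adjusted p = 0.136, 0.108 and 0.156). Without interstitial replicate 3, Ccrl2 was at -0.03, and Ccr1 was called (0.48, edgeR adjusted p = 0.0398).

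**Figure D4:**
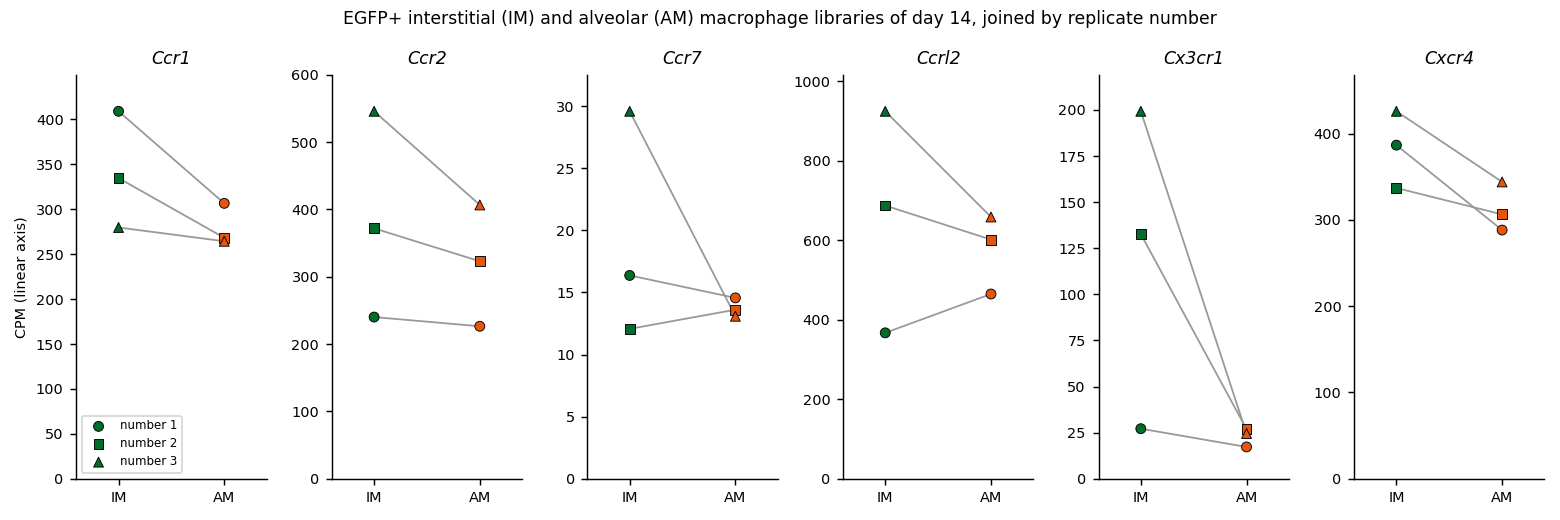
CPM (linear y axes from 0) of each receptor in EGFP+ interstitial (IM, green) and alveolar (AM, orange) libraries of day 14, joined by replicate number. Cx3cr1 is at 133 and 199 CPM in interstitial libraries 2 and 3 and at 27.2 CPM in library 1, while its 3 alveolar libraries lie between 17.3 and 26.9 CPM.

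The list of other chemokine receptors holds 20 genes, among them the chemerin receptor Cmklr1, which was higher after bleomycin in both gates. In wild-type interstitial macrophages 7 of 16 tested were higher and 6 lower (35.6% and 34.5% of all genes). Cmklr1 went from 37.6 ± 3.43 to 145 ± 4.89 CPM (SD, n = 3, 3.75-fold, edgeR adjusted p = 4.8e-17), while the neutrophil receptor Cxcr2 fell 2.16-fold and Cxcr5, a receptor of follicular B cells, 2.05-fold. In alveolar macrophages Cmklr1 was at 1.70 ± 0.344 CPM after PBS, 21.8 ± 6.49 at day 14 (14.7-fold, edgeR adjusted p = 9.3e-10) and 16.9 ± 1.21 at day 30 (10.9-fold, edgeR adjusted p = 4.4e-09). Cxcr1, another neutrophil receptor, fell 9.82-fold at day 14 (edgeR adjusted p = 8.9e-09), from 11.6 ± 0.726 to 1.05 ± 0.529 CPM. Of 15 other receptors tested there, 4 were higher and 5 lower at day 14 (27.3% and 27.6% of all genes). At day 30, 8 were higher and 1 lower (24.8% and 23.1% of all genes), where library totals alone left 5 higher and 1 lower. Between EGFP+ and EGFP- cells 3 of 15 were lower and 0 higher (17.6% and 17.2% of all genes), with Cxcr2 2.48-fold lower. Cxcr2 then fell 44.5-fold between days 7 and 14 of EGFP+ interstitial cells (edgeR adjusted p = 5.8e-10). There, 8 of 15 were lower and 1 higher (26.9% and 25.3% of all genes). Without day 14 replicate 1 the fall of Cxcr2 was 48.2-fold (edgeR adjusted p = 1.8e-10), with 8 of 16 lower and 2 higher. Of the atypical receptors, Ackr1 and Ackr2 had group means of at most 0.088 and 0.234 CPM, Ackr3 between 0.421 and 3.31 and Ackr4 between 1.65 and 5.29.

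The ligands of the members were tested as a list of 17 genes, of which 16 are in both tables. In wild-type interstitial macrophages 6 of 13 tested rose and 5 fell after bleomycin (35.6% and 34.5% of all genes). Ccl2, the main Ccr2 ligand, went from 58.5 ± 13 to 176 ± 20.9 CPM (2.92-fold, edgeR adjusted p = 0.00134), and the Ccr1 ligand Ccl9 rose 1.59-fold while Ccl3 fell 1.99-fold. Between EGFP+ and EGFP- cells 2 of 13 were higher and 5 lower (17.2% and 17.6% of all genes). The Ccr1 ligands Ccl6 and Ccl9 were 2.52-fold and 2.28-fold higher in EGFP+ cells, in which Ccr1 itself was lower. In EGFP+ interstitial cells 4 of 13 were higher and 4 lower at day 14 than at day 7 (25.3% and 26.9% of all genes). Ccl8 was 24.5-fold higher (edgeR adjusted p = 7.0e-05). Without day 14 replicate 1, 3 of the ligands were higher and 5 lower, with Ccl8 28.6-fold higher (edgeR adjusted p = 0.000192). In alveolar macrophages 3 of 14 were higher and 3 lower at day 14 against PBS (27.3% and 27.6% of all genes). At day 30 against PBS 13 of 14 were higher and 1 lower (24.8% and 23.1% of all genes). The median log2 fold change at day 30 was 1.29 against 0.02 over all genes. The 1 lower was Cx3cl1, the Cx3cr1 ligand, which averaged 47.4 CPM after PBS, 11.3 at day 14 (3.68-fold lower, edgeR adjusted p = 3.2e-09) and 14.4 at day 30 (3.05-fold lower, edgeR adjusted p = 1.8e-08), while Cx3cr1 rose. Ccl2 averaged 118 CPM in interstitial and 4.63 in alveolar EGFP+ macrophages of day 14 (26.7-fold, edgeR adjusted p = 0.00418). There, 7 of 12 ligands were higher in interstitial cells and 1 lower (10.8% and 10.2% of all genes). The interstitial libraries were at 222, 76.7 and 55.7 CPM of Ccl2, and without replicate 1, the highest, the difference was 16-fold (edgeR adjusted p = 2.9e-07) and 8 ligands were higher and 1 lower. Cxcl12 had a highest group mean of 5.31 CPM, in wild-type PBS interstitial cells, and the Ccr7 ligands Ccl19 and Ccl21b had 0 counts in all 24 libraries, which allows up to 0.223 CPM in the smallest library (3 counts, counting error only). Ccl21a, also a Ccr7 ligand, averaged 1.23 ± 0.313 CPM in day 30 alveolar libraries and at most 0.0213 in the other groups. Ccl21a and Ccl21b are near-identical copies and the handling of reads that map to several places is not given, so the values of both are uncertain.

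**Figure D5:**
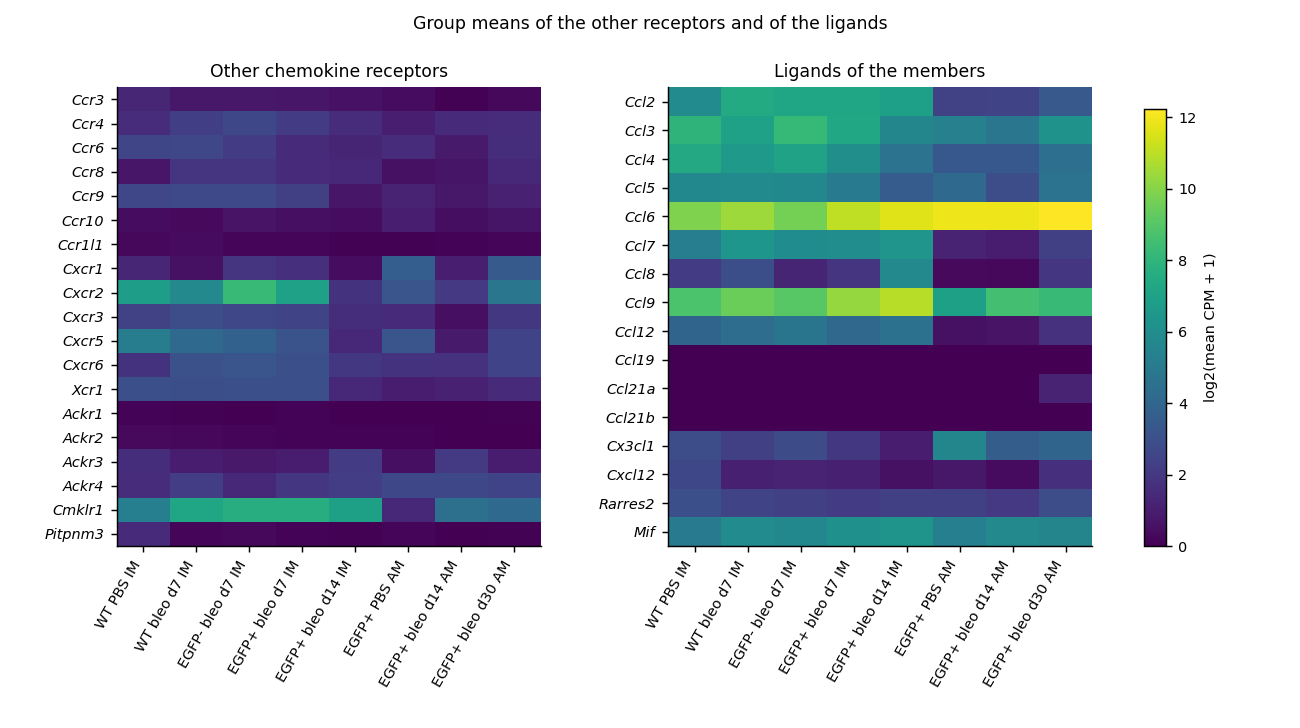
Group means as log2(mean CPM + 1) (colour) of other chemokine receptors (left) and of the ligands (right) in the 8 groups (x axes). Cmklr1 is dark in PBS alveolar macrophages (1.70 CPM) and bright in EGFP+ interstitial macrophages of day 7 (198 CPM), while Cx3cl1 is brightest in PBS alveolar macrophages (47.4 CPM).

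The signalling list held 34 genes for G proteins, kinases, arrestins and regulators that act below these receptors, and all 34 were tested in every comparison. After bleomycin 12 rose and 13 fell in wild-type interstitial macrophages (35.6% and 34.5% of all genes), with a median of -0.04 against 0.0 over all genes. Grk3, a kinase that switches off stimulated receptors, fell 3.81-fold there (edgeR adjusted p = 3.4e-17), and Klf2, a transcription factor of leukocyte trafficking genes, 2.31-fold (edgeR adjusted p = 2.1e-15). Both were also lower in EGFP+ than EGFP- cells, Grk3 by 2.03-fold and Klf2 by 1.74-fold, in a comparison with 8 lower and 1 higher (17.6% and 17.2% of all genes). In alveolar macrophages 14 were higher and 7 lower at day 14 against PBS (27.3% and 27.6% of all genes). That balance turned to 8 higher and 13 lower with scaling by library totals alone. Rgs10, Rgs2 and Rgs1, which shorten G protein signals, rose 3.98-fold, 2.54-fold and 2.32-fold, and Klf2 fell 2.61-fold. From day 14 to day 30, 4 rose and 9 fell (6 and 5 with library totals alone), where 19.6% of all genes rose and 18.7% fell. Klf2 rose 3.76-fold between these days (edgeR adjusted p = 5.3e-09), while Rgs1 and Rgs10 each fell 1.6-fold.

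The genes most like each member were read from Pearson correlations of log2(CPM + 1) over the 24 libraries among 7919 genes, as a description without a test, since libraries of one group share sort, day and table. The gene nearest to Ccr7 was Dpp4 (r = 0.986), with Adgrl1, Dusp2 and Rflnb also among the 5 nearest. For Ccr1 it was Gpr35 (0.963), with Clec4e, Nlrp3, Entpd7 and Slfn2 next, and for Ccr2 it was Ms4a6c (0.952), with Gatm, Cysltr1, BE692007 and Hopxos next. Ccrl2 was nearest to Il1b (0.956), the gene of interleukin 1 beta, followed by Ifi211, Gbp3 and Usp18. Cx3cr1 was nearest to Evi2a (0.959), with Cst3, Tmem176b, Blnk and Tmem176a next, and Cxcr4 to Csrnp1 (0.971), with Arl4c, Napsa, Rogdi and Gbp9 next. No member was among the 5 genes nearest to another. The highest correlation between members was that of Ccr2 with Ccrl2 (0.888) and the lowest that of Ccr2 with Ccr7 (0.272).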

How the data were processed

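The deposited raw counts per gene, whole numbers in 2 tables, were made by the authors from 24 polyA libraries with FastQC 0.11.5, Trimmomatic 0.38, HISAT2 2.1.0 (GRCm38), SAMtools and featureCounts 1.6.3, per the submitters' processing notes. The annotation release, the strand setting and the handling of reads that map to several places are not given in the sources used here. The tables hold 49585 and 55487 genes and were joined on the 49022 they share, 90.8% of them with the same coordinates, which hold at least 99.486% of each library's counts. All 6 members have the same coordinates in both. In the tables, 3 columns match no sample and were not used.

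CPM divides a count by the library total. Tests used edgeR 4.0.16 in R 4.3.3 (TMM scaling, filterByExpr, robust quasi-likelihood fit, two-sided, Benjamini-Hochberg over all genes tested). The wild-type interstitial, the reporter interstitial and the alveolar groups each had a fit of their own. The comparison of gates at day 14 had a fit of its EGFP+ interstitial and alveolar groups. The standard error is the absolute log2 fold change divided by the square root of F. The procedure was tested on simulated data. Alternatives were DESeq2 1.42.0 (the tool the study's design text names), RLE factors, library totals, no filter, a replicate block, fits of only the groups compared, genes with equal coordinates, all libraries in one fit, and leaving out each library. Leaving out a library leaves 2 in its group. For the gene lists, the other scalings and the fit without day 14 interstitial replicate 1 were chosen after seeing the data.

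The members and lists were chosen with earlier results of these data known. Named were the members, Spp1, Itgam, Siglecf, Ccl2, the Ackr genes, Cx3cl1 and Cxcl12, and from each list up to 4 genes with the smallest p in a comparison. Some genes that these rules pick are not reported here, though counts over a list include them. Likeness used genes with a mean of at least 5 CPM and a pseudocount of 1. Sequences are from RefSeq windows of GRCm38.p6. Replicate numbers come from the sample titles. Deviations of same-numbered libraries correlated at 0.254, 0.156 and 0.205 between the day 14 gates, which was taken as pairing, and in no other comparison did all 3 pass 0.1. Python 3.11.15, numpy 2.4.6, pandas 2.3.3 and matplotlib 3.10.9 were used for levels and plots.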

Additional observations from a re-analysis of the deposited data

Results flagged for a closer look

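In EGFP+ alveolar macrophages 5 of the 6 receptors differed between day 14 and day 30 of bleomycin, tested as the day 30 minus day 14 contrast, in which the shared PBS libraries cancel. Of all 14706 genes tested, 38.4% were called in this contrast (19.6% higher and 18.7% lower). The only PBS alveolar group is of day 7, so a change in the effect of bleomycin cannot be told apart from time alone. The difference was -0.96 on the log2 scale for Ccr1 (edgeR adjusted p = 1.0e-07), -2.11 for Ccr2 (edgeR adjusted p = 0.000269), -1.1 for Ccrl2 (edgeR adjusted p = 5.0e-07), -0.62 for Cxcr4 (edgeR adjusted p = 4.6e-05) and 1.32 for Ccr7 (edgeR adjusted p = 1.5e-06). In each of these 5 the libraries of the days did not overlap, and the share of all genes without overlap was not computed. Against the day 7 PBS group, Ccr1 was higher at day 14 (0.66) and lower at day 30 (-0.30). Both days are in the same deposited table, and the calls were kept under every alternative tried, with no cause tested.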

How the results depend on the processing

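Of 42 member results, 23 were called, and 20 of these kept direction and call under every alternative tried; the others are Cx3cr1 in wild-type cells, Ccr7 by reporter and Ccrl2 at day 30 against PBS, with their values given above. The numbers of genes called moved by over 1.5 times in 2 comparisons: EGFP+ against EGFP- (5206) gave 3280 without EGFP+ replicate 2, within 3280 to 4221 over the libraries left out, and interstitial against alveolar at day 14 (2832) gave 1840 to 3326, with 1840 without alveolar replicate 2, 1881 without alveolar replicate 3, and 5906 in one fit of all 24 libraries. The replicate block took that count to 3648 and, beside Ccr1 and Cxcr4 in that comparison, changed no member's call. In the other comparisons no pairing by number was detected, as not every library correlated best with its own number. Such correlations cannot show that no animals were shared. There, the block took the counts of genes called from 10871 to 10688 (wild-type), 5206 to 4907, 7806 to 7612, 8068 to 7837, 7050 to 6799 and 5640 to 5356, in the order of the plot of fold changes. Scaling by library totals alone shifted the median log2 fold change of all genes to -0.22 for interstitial day 14 against day 7, -0.2 for alveolar day 14 against PBS and -0.11 for interstitial against alveolar cells, and the share of calls that were higher from 48.4% to 27.8%, 49.7% to 32.2% and 51.3% to 38.3%; for alveolar day 30 it went from 51.8% to 39.1% against PBS and from 51.2% to 62.4% against day 14. Uncalled members changed sign near 0. Cxcr4 at alveolar day 30 against PBS was -0.00067 with DESeq2, -0.00069 with RLE factors, -0.1 with library totals and -0.03 without the filter. Leaving out 1 library gave -0.05 to 0.07 there, -0.44 to 0.25 for Ccrl2 and -0.19 to 0.03 for Cxcr4 at interstitial day 14 against day 7, -0.04 to 0.23 for Cx3cr1 between alveolar days 30 and 14, and -0.03 to 0.66 for Ccrl2 between the gates. Scaling CPM by TMM factors of all 24 libraries multiplied levels by 0.909 to 1.15, and 13 of 48 group means moved by 1 SD or more. These were, in wild-type bleomycin cells, Ccr1 (328 CPM), Ccr2 (596), Ccr7 (124), Ccrl2 (767), Cx3cr1 (150) and Cxcr4 (620), in wild-type PBS cells Ccr7 (208), Ccrl2 (458) and Cxcr4 (657), in PBS alveolar cells Ccr1 (188) and Ccrl2 (227), and Ccr7 in alveolar (14.7) and Cxcr4 in interstitial cells (441) of day 14. With 3 libraries a group, a difference that missed the threshold is not shown to be absent. Where a library left out or a scaling changed a call, the cause was not tested.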
